A study of Mus musculus with 18 samples.

Results

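The response of naive CD4+ T cells to peptide antigen (Ag) inside the mouse was examined in 6 of the 18 RNA-seq libraries of the series, chosen by their labelled treatment alone. The 3 libraries of resting naive cells are named N0 and the 3 libraries of Ag-treated naive cells NAg. All mice were Tg4-H2u mice, whose CD4+ T cells nearly all carry one transgenic T cell receptor (TCR) for the N-terminal peptide of myelin basic protein. The N0 mice had received repeated subcutaneous PBS on the schedule that was used elsewhere in the study for tolerance induction. The paper does not state this for the NAg mice. A last injection was given 2 h before the spleen was taken, of PBS in N0 and of the high-affinity analog peptide MBP Ac1-9[4Y] in NAg. CD4+ T cells were enriched magnetically without sorting, so the naive pool is the non-tolerized CD4+ compartment of these mice, which can hold memory and regulatory cells. The study used mice of both sexes, 6 to 12 weeks old. The remaining groups were tolerized cells at rest (T0) and after Ag (TAg), and naive or tolerized cells treated in culture with phorbol ester and calcium ionophore. The label "replicate" is not tied to single mice in the sources used here, so p-values measure the spread between these libraries.

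A naive CD4+ T cell circulates in a state of quiescence, small and with little protein synthesis. Homing and egress receptors guide it into and out of lymphoid organs, and IL-7 keeps it alive. When its TCR meets peptide on an MHC class II molecule, calcium, ERK and protein kinase C signals activate the NFAT, AP-1 and NF-kB factors, and genes that need no new protein for their transcription, the immediate early genes, are switched on within minutes. IL-2 and its receptor, the transcription factors MYC and IRF4, and the machinery for making ribosomes follow in the first hours, well before the first division. The comparison of NAg with N0 takes a picture of this program at 2 h in the animal.

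The deposited values are raw counts per Ensembl gene. Each N0 library held 10758571 to 11204651 counted reads and each NAg library 11937546 to 13559974. Values below are normalized counts, that is counts divided by the library size after TMM scaling, and every fold change is a log2 difference NAg minus N0 with its standard error (SE) from edgeR's quasi-likelihood fit to all 18 libraries. A gene rose or fell where its Benjamini-Hochberg adjusted p over the 17240 tested genes was under 0.05, and it was called where the change was also at least 2-fold with a mean normalized count above 50 in the higher group. A total of 10 T cell genes (Cd3d, Cd3e, Cd3g, Cd4, Trac and others) summed to 48750.2 to 52691 normalized counts in N0 and 32981 to 36639.8 in NAg. B cell markers summed to 4142 to 8393 and 1523 to 4520.2, dendritic cell markers to 2205 to 6784 and 4073 to 6259.9, macrophage markers to 648 to 974 and 626 to 2887 and NK cell markers to 1151 to 2060.4 and 1500.2 to 3308. N0 replicate 1 held the most B cell and dendritic cell RNA of the N0 libraries, and NAg replicate 1 the most macrophage RNA of the NAg libraries. A set of 5 sex-linked genes summed to 18481.1 in N0 replicate 1 and to 35898.5 and 35962.7 in N0 replicates 2 and 3. In NAg their sum was 42051.1 to 49375.5. None of the 5 rose or fell, and a difference in sex between the libraries was not tested. Cd8a and Cd8b1, markers of the CD8 T cells that the enrichment removes, had means of 27.4 and 205 in N0 and 17.5 and 107 in NAg. In bulk RNA, fewer cells of a type and less RNA per cell cannot be told apart.

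A large share of the transcriptome had changed at 2 h. Of the 17240 tested genes, 5534 (32.1%) rose and 5761 (33.4%) fell, together 65.5%, and 11733 (68.1%) had no overlap between the 3 N0 and the 3 NAg libraries. All counts of gene list members below are to be read beside the 32.1% that rose and the 33.4% that fell. A total of 2444 genes (14.2%) were called higher and 2785 (16.2%) called lower, together 30.3%, in the quasi-likelihood test of edgeR with Benjamini-Hochberg adjusted p. Scaling by library totals instead lowered the log2 fold change of all tested genes by a median of 0.41, and with it 1663 genes were called higher and 3898 lower, so a share of 29.9% of the called genes were higher in place of 46.7%. Changes are given relative to the TMM scale, on which the median was 0.00. Large rises were more frequent than large falls. A change of at least 32-fold was seen in 72 of the genes called higher and 23 of those called lower, while 1454 and 1645 lay between 2-fold and 4-fold. The reads moved further than the gene counts. Genes called higher held 14.9%, 14.6% and 14.8% of all counted reads in the N0 libraries and 44.6%, 46.1% and 45.4% in the NAg libraries, and genes called lower went from 25.8%, 26.4% and 25.6% to 5.89%, 5.21% and 5.50%. These shares describe genes selected on the same libraries. The T0 and TAg libraries were part of the fit, but not of the contrast that selected the genes. In T0 the genes called higher held 14.8% to 15.1% of reads, and in TAg 37.6% to 39.0%.

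**Figure D1:**
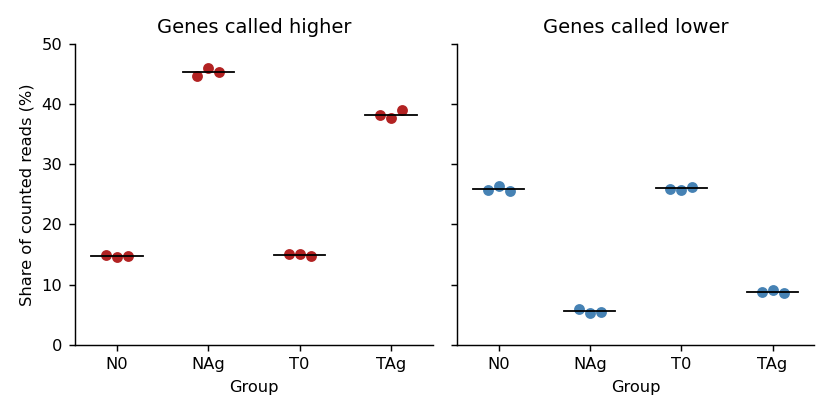
Share of all counted reads, in percent (y axis), held by the 2444 genes called higher (left) and the 2785 called lower (right) in NAg against N0, one point per library of N0, NAg, T0 and TAg, with a line at the mean. The genes called higher held 14.6% to 14.9% of reads in N0 and 44.6% to 46.1% in NAg, and the genes called lower 25.6% to 26.4% and 5.21% to 5.89%.

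Most called genes encode proteins, 2198 of those called higher and 2640 of those called lower out of 13856 tested. Of 638 long noncoding RNAs 48 were called higher and 46 lower, and small nucleolar RNAs, which are treated with the ribosome below, were called almost only in one direction. The protein-coding genes that rose at least 16-fold started from a median of 10.7 reads per kilobase of exon in N0, against 71.2 for all tested protein-coding genes. Those that fell at least 16-fold started from 108. A total of 1413 called genes (27%) share exon sequence with another gene, 1152 of them on the opposite strand, and the use of strand in the counting is not given in the sources used here. Values of such genes may include reads of the partner.

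**Figure D2:**
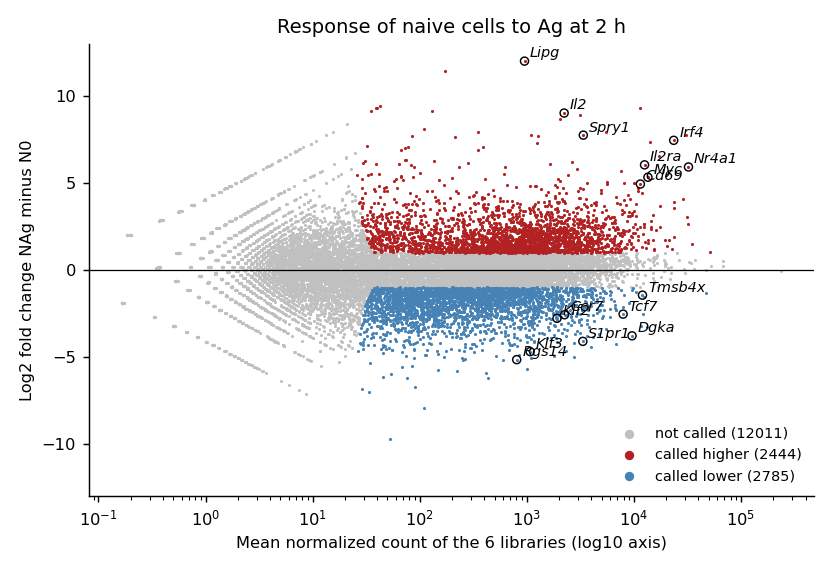
Log2 fold change NAg minus N0 (y axis) against the mean normalized count of the 6 libraries on a log10 axis (x axis) for the tested genes. Each point is 1 gene, colored where it was called higher (2444) or lower (2785), and the ringed and labeled points are genes described in the text. A further 53 tested genes had no read in these 6 libraries and have no place on the axis.

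Transcription factor genes were among the largest rises. The NR4A orphan nuclear receptors, whose transcription tracks the strength of TCR signals, rose together. Nr4a1 had 598, 1041 and 1493 in the N0 libraries and 58617, 62187 and 69904 in the NAg libraries, a log2 fold change of 5.93 ± 0.30 (edgeR adjusted p = 2.65e-10). Nr4a2 had 34.7, 48.0 and 50.6 in the N0 libraries and 10881, 11248 and 10423 in the NAg libraries (7.93 ± 0.11), and Nr4a3 287, 225 and 324 in the N0 libraries and 58672, 63402 and 60883 in the NAg libraries (7.77 ± 0.19). The groups were far apart in all 3 genes, and Nr4a2 was close to 0 at rest while Nr4a1 already had many reads. Of the EGR, NAB and NR4A list, all 9 of 9 tested members rose and 7 were called, with a median log2 fold change of 3.77 beside 0.00 over all tested genes (5.45 without N0 replicate 1). Egr2, an early zinc finger factor, went from 102 ± 45.4 to 3809.5 ± 342 (SD, n = 3 each), Egr3 from 111 ± 26.4 to 979 ± 92.0 and Egr1 from 625 ± 109 to 2615 ± 237, and Nab2, a corepressor that binds the EGR factors, from 482 ± 30.9 to 1475 ± 203.

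The 3 NR4A genes share a feature in the bases just before their start sites. Cyclic AMP response elements (CREs) are bound by CREB and ATF factors, and their core is TGACG, or CGTCA on the other strand. At least 4 cores were found in the 250 bases before the start of each of the 3 genes. The windows are from RefSeq in build GRCm38.p6, at chr15:101266596-101266845 (plus strand), chr2:57124004-57124253 (minus strand) and chr4:48045055-48045304 (plus strand), and are written 5′ to 3′ in the direction of transcription with every core in capitals.

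Nr4a1: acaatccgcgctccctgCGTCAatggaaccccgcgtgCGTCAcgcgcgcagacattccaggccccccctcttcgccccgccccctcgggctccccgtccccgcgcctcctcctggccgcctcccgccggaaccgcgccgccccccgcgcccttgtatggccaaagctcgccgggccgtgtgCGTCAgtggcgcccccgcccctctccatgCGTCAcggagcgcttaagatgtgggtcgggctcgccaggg

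Nr4a2: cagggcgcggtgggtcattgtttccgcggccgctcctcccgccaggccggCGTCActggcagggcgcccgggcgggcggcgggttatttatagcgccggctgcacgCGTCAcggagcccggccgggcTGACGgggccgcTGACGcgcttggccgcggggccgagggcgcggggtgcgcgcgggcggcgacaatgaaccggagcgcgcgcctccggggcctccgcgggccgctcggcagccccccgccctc

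Nr4a3: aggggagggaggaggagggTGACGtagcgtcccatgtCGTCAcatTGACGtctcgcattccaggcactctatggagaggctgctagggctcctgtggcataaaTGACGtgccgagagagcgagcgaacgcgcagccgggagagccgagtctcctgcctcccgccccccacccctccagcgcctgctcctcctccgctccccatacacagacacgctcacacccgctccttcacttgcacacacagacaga

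In windows of 300 bases (250 before and 50 after the start), 0.59% of 10163 tested genes with a RefSeq window held at least 4 cores. Among the genes called higher the share was 1.15% of 1652, and among those up at least 16-fold it was 3.0% of 100, which is these same 3 genes. The match is a description of the letters and no site was tested.

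Interferon regulatory factors moved member by member. Irf4, which programs activated T cells in proportion to the TCR signal, had 329, 211 and 256 in the N0 libraries and 46112, 46679 and 47495 in the NAg libraries (7.46 ± 0.16, edgeR adjusted p = 1.60e-19). Irf8, better known from dendritic and B cells, had 573, 232 and 279 in the N0 libraries and 32270, 33966 and 35466 in the NAg libraries (6.55 ± 0.31). Both stood far above the N0 libraries in every NAg library. The dendritic cell marker sums were 1.42 times as high in NAg as in N0 in the mean, and their part in the Irf8 rise was not tested. Irf1 also rose (1.39 ± 0.10), while Irf2 fell (−1.10 ± 0.09). In all, 4 of 11 rose and 3 fell, close to the 32.1% and 33.4% of all tested genes.

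The NF-kB system rose almost as a whole, activators and inhibitors alike. Of 18 subunits and feedback inhibitors, 16 rose and 2 fell, with 15 and 2 called and a median of 2.78. The subunit gene Nfkb1 had 3617, 2761 and 3261 in the N0 libraries and 50964, 56319 and 56852 in the NAg libraries (4.09 ± 0.10). Rel, the subunit most tied to T cell activation, had 724, 648 and 709 in the N0 libraries and 12515, 12867 and 12924 in the NAg libraries. Both groups were well separated. The inhibitors Nfkbia and Nfkbid went from 1485 ± 203 to 13889 ± 548 and from 1073 ± 182 to 22934 ± 1446, and Tnfaip3, encoding the ubiquitin editor A20, from 3504 ± 1689.8 to 19463 ± 678. Tnip3, encoding a binding partner of A20, rose from near silence, with 5.94, 4.18 and 6.94 in the N0 libraries and 861, 732 and 494 in the NAg libraries. The members that fell were Cyld, a deubiquitinase that restrains the pathway (−1.31 ± 0.06), and Tnip1 (−1.23 ± 0.08).

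NF-kB sites, searched by their consensus, were found in 10 of 15 list members with a RefSeq window (66.7%), against 6.42% of all tested genes with one. The window of Rel is shown for that reason. Beside it is the window of Tnfrsf9, a costimulatory receptor of the TNF receptor family, which is neither a subunit nor an inhibitor. The capitals mark the NF-kB matches, and in Tnfrsf9 also the AP-1 match TGAGTCA. They lie at chr11:23770970-23771219 (minus strand) and chr4:150927749-150927998 (plus strand) in GRCm38.p6. For Tnfrsf9 the window of 1 of its annotated starts was chosen because it held the matches. The factors chosen for this list are known targets of their own pathway, so the share is not independent of the choice.

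Rel: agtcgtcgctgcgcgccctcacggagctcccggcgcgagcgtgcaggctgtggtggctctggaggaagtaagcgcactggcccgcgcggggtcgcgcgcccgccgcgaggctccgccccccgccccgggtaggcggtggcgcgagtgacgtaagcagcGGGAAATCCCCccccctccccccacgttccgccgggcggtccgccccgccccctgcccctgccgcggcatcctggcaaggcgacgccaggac

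Tnfrsf9: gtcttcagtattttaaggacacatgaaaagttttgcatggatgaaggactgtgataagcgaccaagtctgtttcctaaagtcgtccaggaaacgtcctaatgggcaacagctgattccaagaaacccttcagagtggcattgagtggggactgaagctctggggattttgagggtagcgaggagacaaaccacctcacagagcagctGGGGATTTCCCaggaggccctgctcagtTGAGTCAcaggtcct

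AP-1 is a dimer of FOS, JUN, BATF and ATF family proteins. Its subunits did not move as one. Fosl2 had 156, 179.6 and 178 in the N0 libraries and 26179, 31276 and 26615 in the NAg libraries (7.35 ± 0.12, edgeR adjusted p = 1.52e-23). Fosl1 had 0.991, 2.09 and 1.98 in N0 and 141, 167 and 133 in NAg, Atf3 41.6, 12.5 and 8.93 in N0 and 926, 761 and 699 in NAg and Batf 199, 148 and 171 in N0 and 2023, 2153 and 2185 in NAg. Each NAg library was above each N0 library in these genes. Junb rose by 0.75 on the log2 scale, a change that did not pass without NAg replicate 1 or replicate 2 (edgeR adjusted p = 0.0532 and 0.0542), and Jun fell (−0.80 ± 0.19). Fos and Fosb did not pass the test, with means of 1323 and 465 in N0 and 1729 and 1072 in NAg. Without N0 replicate 1 both passed as higher, by 0.66 for Fos and 2.20 for Fosb, Fosb also did without NAg replicate 2 (1.53), and Fos was 0.06 lower and did not pass without NAg replicate 3. The count was 7 of 12 higher and 1 lower. Among 24 other immediate early genes, 20 rose and 1 fell (median 2.15). The one that fell was Gadd45a (−0.66 ± 0.22), which did not pass without NAg replicate 1 or replicate 2. Kdm6b, a histone H3K27 demethylase, went from 2959 ± 622 to 44062 ± 3166, Gadd45b from 105 ± 24.4 to 5832 ± 596, and Crem, a CREB family member, from 360.4 ± 93.9 to 3042 ± 426.

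In the NFAT family the members parted. Nfatc1, the inducible member, rose from 2778 ± 75.2 to 12910.5 ± 652 (2.22 ± 0.10), and Nfatc2 and Nfatc3, the members present in resting T cells, fell (−2.56 ± 0.11 and −2.11 ± 0.11). Rcan1, a calcineurin inhibitor and standard NFAT target, rose (1.33 ± 0.17). With calcineurin subunits and partners counted, 4 of 14 rose and 9 fell.

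Myc, the driver of growth in activated lymphocytes, had 611, 612 and 734 in the N0 libraries and 25485, 27576 and 26059 in the NAg libraries (5.34 ± 0.12, edgeR adjusted p = 2.21e-21). Its partner Max rose by 0.48, and the antagonists split, with Mxd1 and Mnt higher (1.87 and 1.48) and Mxd4 and Mxi1 lower (−4.35 and −1.47). Hif1a, the hypoxia-inducible subunit that also supports glycolysis in activated T cells, went from 1733 ± 128 to 18176 ± 1734 (3.39 ± 0.12). Bhlhe40, a regulator of helper cell cytokines, had 218, 112 and 208 in N0 and 3379.8, 2713 and 1999 in NAg. Of 12 genes of the MYC network 6 rose and 4 fell.

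Helper lineage factors of several kinds rose. Tbx21 (T-bet, Th1) had 166, 80.4 and 95.2 in the N0 libraries and 3806, 4080.0 and 3945 in the NAg libraries (5.11 ± 0.26), Ahr, a ligand-activated factor, rose from 115 ± 26.5 to 1115 ± 351 (3.27 ± 0.23), Prdm1 (Blimp-1) from 163 ± 16.3 to 454 ± 131 (1.48 ± 0.22) and Foxp3 (regulatory T cells) from 263 ± 110.1 to 694 ± 241 (1.39 ± 0.44). The Foxp3 change did not pass without N0 replicate 2 or NAg replicate 1 (edgeR adjusted p = 0.0689 and 0.0575). Gata3, the Th2 factor, was slightly lower (−0.39 ± 0.10), and Zbtb7b, which keeps the CD4 fate, fell (−3.68 ± 0.11). Of 27 such factors 18 rose and 4 fell. Id2 rose (1.80 ± 0.12) while Id3 and Tcf3, which encodes an E protein that the ID proteins bind, fell (−0.70 ± 0.21 and −1.21 ± 0.08). The Id3 change did not pass with marker scores of other cell types as covariates (−0.41, edgeR adjusted p = 0.119).

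**Figure D3:**
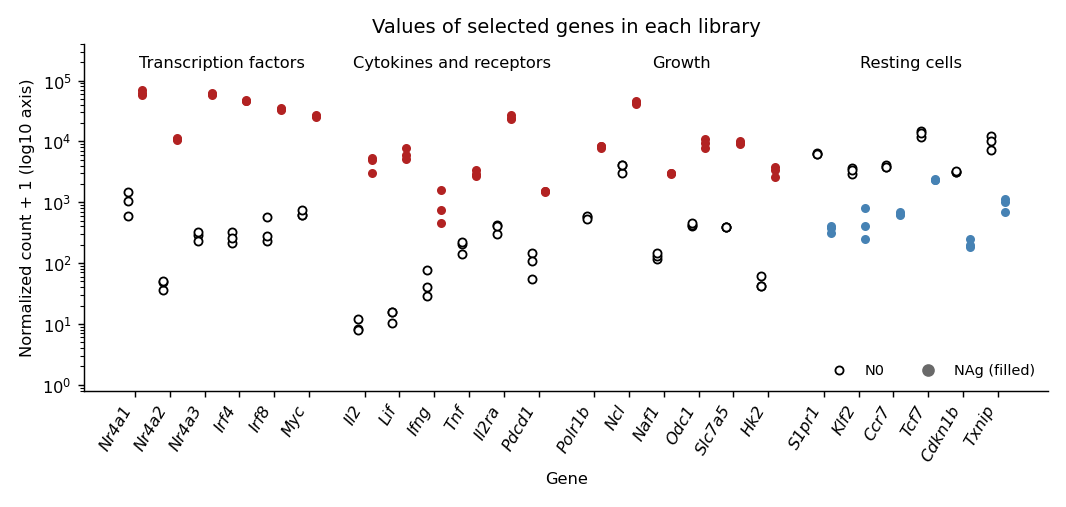
Normalized counts on a log10 axis (y axis, 1 added to each value) of 24 genes in the 3 N0 (open points) and 3 NAg (filled points) libraries, with the genes along the x axis in 4 groups (transcription factors, cytokines and receptors, growth, and genes of resting cells). Each point is 1 library. In the first 3 groups every NAg point lies above every N0 point, and in the last every NAg point lies below.

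Several cytokine genes rose from little or nothing. Il2, at chr3:37019445-37024881 in mm9, had 10.9, 7.31 and 6.94 in the N0 libraries and 5024, 5268 and 3063 in the NAg libraries (9.03 ± 0.42, edgeR adjusted p = 1.44e-10). Il3 had no read in the 3 N0 libraries and 457, 304 and 265 in NAg, at least 337-fold higher against a floor of 3 reads over the group. Lif, a cytokine of the IL-6 family, had 14.9, 9.40 and 14.9 in the N0 libraries and 7829, 5981 and 5045 in the NAg libraries (8.89 ± 0.29). The 3 genes were at or near 0 in every N0 library and well above it in every NAg library. Il22 had no N0 read and 75.5, 92.8 and 41.8 in NAg (at least 68.8-fold), and Il17f had 3 reads over N0 and 255, 119.8 and 84.7 in NAg (149.9-fold, exact 95% counting interval 50.9 to 729.8). Il17a rose from 3 reads over the group to 77.9, 44.6 and 29.7.

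Ifng, the Th1 effector cytokine, had 77.3, 28.2 and 39.7 in the N0 libraries and 1584, 749.5 and 462 in the NAg libraries (4.25 ± 0.53). Tnf had 206, 138 and 220.1 in the N0 libraries and 2949.6, 2667 and 3395 in the NAg libraries (3.99 ± 0.18) and its relative Lta 136, 90.8 and 96.2 in N0 and 1465, 1237 and 1318 in NAg (3.63 ± 0.19). Il21, which helps B cells, had 13.9, 2.09 and 5.95 in N0 and 657, 438 and 283 in NAg (5.93 ± 0.55), and Il10, the anti-inflammatory cytokine, 2.97, 0 and 1.98 in N0 and 119.9, 82.2 and 45.1 in NAg (5.50 ± 0.81). Il4, Il5 and Il13 of Th2 cells rose too, to low levels, with means of 4.65, 11.4 and 26.0 in NAg and 2 or fewer reads in every N0 library. Il4 did not pass on library totals or without N0 replicate 2, N0 replicate 3 or NAg replicate 2 (edgeR adjusted p of 0.0745, 0.114, 0.120 and 0.126). Of 25 cytokine genes 21 rose and 3 fell, with a median of 4.66. Tgfb1 went from 1317 ± 86.2 to 7338 ± 202. The falls were Il16, a chemoattractant stored by resting T cells, with 5492, 5162 and 5118 in the N0 libraries and 301, 261 and 295 in the NAg libraries (−4.20 ± 0.15), Ltb (−0.88 ± 0.14) and Clcf1 (−1.07 ± 0.08).

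The window before the Il2 start is shown because it holds a TATA box (TATAAA, in capitals), as did 27.0% of the 100 genes called higher at least 16-fold, 9.62% of all genes called higher and 9.22% of all tested genes with a window. It lies at chr3:37125955-37126204 (minus strand) in GRCm38.p6. TATAAA was also found in 27.6% of 29 windows of genes of naive identity, homing and quiescence, most of which fell. In ribosome biogenesis genes it was found in 6.52% of 92 windows.

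Il2: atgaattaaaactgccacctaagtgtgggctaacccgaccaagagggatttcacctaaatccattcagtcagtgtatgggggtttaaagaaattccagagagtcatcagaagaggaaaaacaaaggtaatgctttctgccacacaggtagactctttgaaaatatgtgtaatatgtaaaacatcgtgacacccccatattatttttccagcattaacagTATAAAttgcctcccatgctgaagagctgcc

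Chemokines followed, including genes usually credited to dendritic cells and macrophages. Ccl22 had 2 reads over the N0 group and 239.7, 206 and 207 in NAg (323-fold, exact 95% counting interval 89.0 to 2672). Cxcl9 had 0.991, 4.18 and 2.98 in the N0 libraries and 1006, 564 and 527 in the NAg libraries (7.96 ± 0.41), and Cxcl10 7.92, 1.04 and 7.93 in the N0 libraries and 1210.5, 517 and 591 in the NAg libraries (7.05 ± 0.58). Cxcl11 rose from 2 reads over the group to 246, 146 and 111. The 3 CXCR3 ligands were at or near 0 reads in N0 and above it in all NAg libraries. Ccl4, made by T cells and NK cells among others, had 53.5, 45.9 and 28.8 in N0 and 1399, 1148 and 1279 in NAg (4.90 ± 0.29), and Xcl1 21.8, 7.31 and 11.9 in N0 and 234, 187 and 184 in NAg (3.86 ± 0.72). Of 17 chemokines 12 rose and none of the tested ones fell. Of the 15 dendritic cell markers 3 rose (Ccl17, Zbtb46 and Bst2), 1 fell, and 11 did not pass, and their summed level was 1.42 times that of N0. Zbtb46 did not pass on library totals or with the marker scores as covariates (edgeR adjusted p of 0.0528 and 0.0579). Of the 14 macrophage markers 3 rose. This number was 0 without NAg replicate 1, 8 without NAg replicate 2 and 11 without NAg replicate 3. It was 1 without N0 replicate 1, 6 without N0 replicate 3 and 0 with the marker scores as covariates. NAg replicate 1, which held the most macrophage RNA, was also the highest library in Ifng, Il17a, Il17f, Cxcl9, Cxcl10 and Cxcl11. The same library was highest in Il3, Lif, Il21, Il10, Lta and Ccl4 too, and it was not the highest in Il2, Il22 or Tnf. The part of dendritic cells and macrophages in the chemokine and cytokine rises was not tested.

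The Cxcl10 window is printed for its interferon response element, searched by its consensus, which precedes a pair of NF-kB sites (all in capitals). It lies at chr5:92348890-92349139 (minus strand) in GRCm38.p6. The element was found in 59.4% of 32 windows of a list of interferon response genes and in 3.94% of all tested windows.

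Cxcl10: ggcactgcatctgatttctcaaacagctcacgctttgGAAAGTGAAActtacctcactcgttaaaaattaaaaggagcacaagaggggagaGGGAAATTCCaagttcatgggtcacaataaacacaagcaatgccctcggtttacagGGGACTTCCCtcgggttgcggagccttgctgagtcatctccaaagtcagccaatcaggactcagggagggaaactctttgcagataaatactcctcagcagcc

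Of 46 interferon response genes 24 rose and 7 fell (median 0.69), and the members were not uniform. The number lower was 14 on library totals and 11 with the marker scores as covariates, where the median was 0.15, and 4 with only the N0 and NAg libraries. The interferon-gamma inducible GTPases rose, Gbp2 from 646 ± 117 to 3237 ± 508, Igtp from 1273 ± 189 to 5126 ± 239 and Irgm1 from 951 ± 148 to 5670.1 ± 698. Ifit2 and Ddx58, best known from the type I interferon response, fell (−1.39 ± 0.17 and −1.44 ± 0.10).

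At the cell surface, activation markers rose in 14 of 16 cases and none fell (median 2.94). Cd69, which retains cells in lymphoid tissue, had 591, 871 and 704 in the N0 libraries and 21023, 20272 and 25440.5 in the NAg libraries (4.95 ± 0.17). Il2ra, the high-affinity IL-2 receptor chain (CD25), had 416, 299 and 406 in the N0 libraries and 24242, 26689.9 and 23344 in the NAg libraries (6.05 ± 0.26), and Tfrc, the transferrin receptor of growing cells, 905, 899.9 and 867 in the N0 libraries and 17762, 20915 and 23487 in the NAg libraries (4.54 ± 0.15). All 3 were separated widely from rest. Cd44, the marker of memory cells, rose by only 0.99.

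The costimulatory and co-inhibitory receptors rose side by side. Among costimulatory receptors, 14 of 20 rose and 4 fell. Tnfrsf9 (4-1BB) had 162, 54.3 and 98.2 in N0 and 2997, 2885 and 2021 in NAg (4.64 ± 0.30) and Tnfrsf4 (OX40) 201, 129 and 179 in N0 and 2028, 1907 and 1356 in NAg (3.37 ± 0.17), while Cd28 itself fell (−1.04 ± 0.12). Pdcd1 (PD-1) had 147, 54.3 and 106 in the N0 libraries and 1477, 1511 and 1533 in the NAg libraries (3.87 ± 0.20) and Ctla4 596, 362 and 489 in the N0 libraries and 4838, 4942 and 3737 in the NAg libraries (3.22 ± 0.20). Both are receptors known from exhausted and tolerant cells, and their groups did not overlap. Cd274 (PD-L1) went from 492 ± 48.3 to 4944 ± 294 and Lag3 from 36.9 ± 21.7 to 138 ± 29.8, and Cd96 fell (−2.11 ± 0.10). Of 16 co-inhibitory genes 9 rose and 4 fell. TNF family ligands rose in 8 of 10 cases, among them Cd40lg, the signal to B cells, from 969 ± 206 to 7855 ± 1066, and Tnfsf11 (RANKL) from 118 ± 50.7 to 3511 ± 424. Tnfsf10 (TRAIL) fell (−0.55 ± 0.13).

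Cytokine receptors moved in both directions, with 18 of 35 higher and 13 lower. Il2rb, Il15ra, Il12rb2 and Il6st rose (2.49, 3.04, 2.66 and 2.28), and Il7r, the survival receptor of resting cells, Ifnar1 and Ifngr2 fell (−1.37, −1.81 and −1.65). Downstream of them, Cish, an inhibitor of IL-2 signals, had 294, 319 and 417 in the N0 libraries and 12465, 11397 and 8490.4 in the NAg libraries (4.97 ± 0.18), and Socs1 182, 244 and 267 in the N0 libraries and 6579.9, 6467 and 5233 in the NAg libraries (4.72 ± 0.12). Stat5a rose from 1166 ± 47.2 to 15740.5 ± 1280.2 and Jak2 from 2477 ± 170.0 to 32388 ± 1825, whereas Stat4, Jak1 and Tyk2 fell (−0.83, −0.75 and −0.66). Of 24 genes of this group 17 rose and 6 fell.

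Inhibitors of the RAS and ERK pathway were among the induced genes. Spry1, a Sprouty inhibitor of RAS signaling, had 46.6, 12.5 and 32.7 in the N0 libraries and 6594, 6555 and 6966 in the NAg libraries (7.76 ± 0.41, edgeR adjusted p = 7.49e-10). Of 19 Sprouty, SPRED and related genes 13 rose and 4 fell. The dual-specificity phosphatases, which remove the activating phosphates from MAP kinases, divided, 9 of 18 higher and 7 lower. Dusp4 and Dusp5 rose (4.15 ± 0.20 and 2.92 ± 0.18), and Dusp10, which acts on JNK and p38, fell from 1919.8 ± 872 to 173 ± 23.6 (−3.47 ± 0.34).

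Components of the TCR pathway itself fell more often than they rose. Of 30 genes of proximal signaling 19 fell and 8 rose (median −0.47). Cd3g, a signaling chain of the TCR, had 2154, 2076 and 2182 in the N0 libraries and 711, 597 and 622 in the NAg libraries (−1.73 ± 0.09), and Cd4 7059.8, 7281 and 6488 in the N0 libraries and 2191, 2142 and 2222 in the NAg libraries (−1.67 ± 0.08). Grap2, an adaptor that bridges LAT to SLP-76, had 3715, 5225 and 4214 in N0 and 446, 414 and 352 in NAg (−3.44 ± 0.13). Against them stood Malt1, a paracaspase on the path to NF-kB, which rose from 2149.6 ± 30.1 to 14934 ± 1947, and the kinase gene Zap70, which rose from 2198 ± 56.3 to 8913 ± 337.

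The brakes of TCR signaling were divided, 14 of 33 higher and 16 lower. Cblb and Ptpn22, a ubiquitin ligase and a phosphatase that limit the response, rose from 3037 ± 294 to 14779 ± 1777 and from 1795 ± 186 to 11525 ± 584. Dgka, which removes the second messenger diacylglycerol, had 17691, 18977 and 17034 in the N0 libraries and 1344, 1171 and 1388 in the NAg libraries (−3.78 ± 0.13), and Sit1, a transmembrane adaptor, 485, 679 and 568 in N0 and 27.6, 24.7 and 25.3 in NAg (−4.48 ± 0.16). Rasa3, a RAS inhibitor, fell from 5865 ± 75.4 to 472 ± 64.4. Calcium channel genes differed among themselves. Orai1, the pore of the calcium release-activated channel, rose from 578 ± 107 to 3821 ± 211, and Orai2, Stim1 and the ER receptor Itpr3 fell (−2.75, −2.25 and −2.64). Of 24 calcium and potassium channel genes 8 rose and 13 fell.

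In the BCL2 family, Bcl2l1 (BCL-XL) had 298, 359 and 319 in the N0 libraries and 4828, 6763 and 5749.8 in the NAg libraries (4.15 ± 0.14), and Bcl2, the survival protein of resting cells, fell (−0.70 ± 0.18). The proapoptotic Bcl2l11 (BIM) rose (2.65 ± 0.11) while Bmf, Bad and Bbc3 fell (−2.45, −3.02 and −1.52). The near-identical Bcl2a1 genes rose too (4.42 for Bcl2a1d and 3.79 for Bcl2a1b), but reads may be split among them. Of 19 members of the family 9 rose and 6 fell.

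Ribosome biogenesis genes rose together. Every one of the 110 tested ribosome biogenesis genes rose, 104 of them were called, and the median log2 fold change was 2.41. Their summed normalized counts were 81415, 82805 and 83574 in the N0 libraries and 487501, 537205 and 531939 in the NAg libraries. The N0 and NAg sums did not overlap. Naf1, an assembly factor of box H/ACA particles, had 118, 132 and 144 in the N0 libraries and 2924, 3000.4 and 3076 in the NAg libraries (4.52 ± 0.10), Polr1b, a subunit of RNA polymerase I, 578, 589.8 and 539 in the N0 libraries and 7807, 8317 and 8274 in the NAg libraries (3.84 ± 0.07), and Ncl, the nucleolar protein nucleolin, 3082, 4046 and 4068 in the N0 libraries and 41106, 45489.9 and 43691 in the NAg libraries (3.54 ± 0.10). The smallest changes were in Ubtf (0.42), Ddx52 (0.50) and Emg1 (0.64), all higher. On library totals 108 of the genes rose, and Ubtf and Ddx52 did not pass (0.01 and 0.10). Rrn3, which brings RNA polymerase I to the ribosomal DNA, rose from 808 ± 4.25 to 3112 ± 279.8 (1.94 ± 0.07).

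The Rrn3 window holds a pair of CACGTG E-boxes, the letters that MYC and related factors bind, and is shown with them in capitals. E-boxes were found in 19.6% of 92 windows of ribosome biogenesis genes, 17.2% of windows of all genes called higher, 10.6% of those called lower and 11.5% of all tested ones. In the bases before the start alone the ribosome biogenesis share was 8.70% against 9.56% of all. The ETS core was found in 28.3% of the ribosome biogenesis windows against 8.27% of all, and before the start alone in 16.3% against 6.25%. The Rrn3 window lies at chr16:13780449-13780698 (plus strand) in GRCm38.p6.

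Rrn3: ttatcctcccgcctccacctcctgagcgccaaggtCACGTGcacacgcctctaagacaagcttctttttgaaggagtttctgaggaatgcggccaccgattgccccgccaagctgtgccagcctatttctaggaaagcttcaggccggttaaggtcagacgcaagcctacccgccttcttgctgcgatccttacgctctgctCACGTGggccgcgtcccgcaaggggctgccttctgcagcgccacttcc

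The genes of the ribosomal proteins themselves changed by small amounts. Of 78 cytosolic ribosomal protein genes 71 rose and none fell (39 and 10 on library totals), with a median of 0.56, and 2 were called, Rpl10a among them. Rpl4 went from 12461 ± 872 to 20030.5 ± 514 (0.68 ± 0.07) and Rplp0 from 15393 ± 226 to 22889.9 ± 579 (0.57 ± 0.07). Small nucleolar RNAs, which guide the modification of ribosomal RNA and mostly lie in introns of other genes, rose with the assembly factors. Of 272 tested, 94 (34.6%) were called higher and 1 lower, with a median of 1.22. A tested host gene on the same strand contained 250 of them. Where the host was called higher, 54 of 108 snoRNAs were called higher (median 2.05), where it was not called, 36 of 119 (median 0.89), and where it was called lower, 0 of 23 (median −1.43) with 1 called lower. These RNAs are short, and in libraries of total RNA their reads and those of intronic precursor RNA cannot be told apart. The host transcripts Gas5 and Snhg1 rose from 1068 ± 80.4 to 2994 ± 228 and from 619 ± 94.5 to 2464 ± 182.

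Translation and amino acid supply rose with the ribosome. Of 43 initiation factors and their regulators 36 rose, among them Eif4e, which binds the mRNA cap, from 675 ± 22.0 to 3816 ± 167, and Eif4a1 from 3853 ± 393 to 21013 ± 721. Eif4e3 and the eIF4E inhibitor Eif4ebp2 fell (−1.40 and −0.84). Aminoacyl-tRNA synthetases rose in 19 of 20 cases (median 1.78), with Qars the exception (−0.21). Qars did not pass with the marker scores as covariates (−0.18, edgeR adjusted p = 0.0893). Slc7a5, the large neutral amino acid carrier, had 388, 396 and 387 in the N0 libraries and 9193, 9356 and 10092 in the NAg libraries (4.61 ± 0.07), and its partner Slc3a2 767, 917 and 876 in N0 and 3358, 3717 and 3716 in NAg (2.08 ± 0.08). Slc1a5, which imports glutamine, went from 1926 ± 247 to 17160 ± 1567. Against the trend Slc43a2, another carrier of neutral amino acids, fell from 1306 ± 135 to 72.3 ± 17.5 (−4.18 ± 0.12). Of 25 amino acid and glucose transporters 17 rose and 4 fell.

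The enzymes of one-carbon metabolism, nucleotides and polyamines rose as well. Shmt1, a serine hydroxymethyltransferase, had 86.2, 62.6 and 60.5 in N0 and 4584, 5573 and 5319.7 in NAg (6.20 ± 0.16), Mthfd2 went from 361 ± 4.93 to 2212 ± 195 and Psat1 from 241 ± 44.9 to 2439 ± 249, while Phgdh, the first enzyme of serine synthesis, rose by 0.35 (−0.06 on library totals) and Psph, the last, fell by 1.41 on the log2 scale. Of 21 targets of ATF4 and genes of the serine pathway 15 rose and 3 fell (5 on library totals). Of 34 nucleotide synthesis genes 24 rose and 5 fell. Ctps, which makes CTP, had 276, 283 and 314 in N0 and 4045, 4481 and 4348 in NAg (3.88 ± 0.08), and Cad, of pyrimidine synthesis, went from 1081 ± 75.3 to 5707 ± 279. The salvage kinase gene Dck fell (−2.80). Odc1, the first enzyme of polyamine synthesis, had 407, 428 and 460.1 in the N0 libraries and 9543, 11039 and 7861 in the NAg libraries (4.46 ± 0.11), and 12 of 13 polyamine genes rose.

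In glucose metabolism the inducible enzymes rose. Hk2, an inducible hexokinase, had 61.4, 40.7 and 40.7 in the N0 libraries and 3416, 3752 and 2557 in the NAg libraries (6.08 ± 0.22), and Ldha, lactate dehydrogenase, 2971, 2480.4 and 2677 in the N0 libraries and 12305, 13544 and 13695 in the NAg libraries (2.28 ± 0.09). Pdk1, a kinase gene whose product blocks pyruvate dehydrogenase, fell from 5427 ± 1037 to 476 ± 34.8 (−3.51 ± 0.13). Counted together, 16 of 32 genes of glycolysis and the pentose phosphate path rose and 10 fell. In mitochondria, 23 of 27 import genes rose, and 51 of 75 mitochondrial ribosomal proteins rose and 9 fell. The number of these ribosomal proteins lower was 16 on library totals, 5 with DESeq2 and 3 with the marker scores as covariates. The respiratory chain was mixed with 42 of 77 higher and 18 lower, or 19 and 32 on library totals. Tomm40, the channel of the outer membrane, went from 435 ± 11.3 to 3171 ± 218.

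Genes of protein folding and turnover also rose. Of 38 chaperone genes 29 rose and 5 fell. Hspd1, the mitochondrial chaperonin, went from 822 ± 176 to 7395 ± 521, Cct3, of the cytosolic chaperonin, from 1503 ± 237 to 8142 ± 595, and Hspa5 (BiP), of the endoplasmic reticulum, from 4643 ± 472 to 24212 ± 1475. The heat shock genes Hspa1a and Hspa1b fell in the fit, but this rested on N0 replicate 1. Hspa1a had 390.3, 3.13 and 0 in the N0 libraries and 2.40, 4.70 and 7.70 in the NAg libraries. Hspa1b had 832, 14.6 and 3.97 in the N0 libraries and 4.79, 10.6 and 14.3 in the NAg libraries. Without that library the log2 differences were 1.58 for Hspa1a and 0.07 for Hspa1b, neither passed, and 3 genes of the list fell. Neither passed without any 1 of the NAg libraries either (edgeR adjusted p between 0.0542 and 0.0913). Proteasome genes rose in 37 of 41 cases, and among those that fell were the immunoproteasome subunits Psmb8 and Psmb10 (−0.87 and −0.98). Splicing factors of the SR and hnRNP families rose in 31 of 40 cases.

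Lipid synthesis genes moved in both directions. Of 39 cholesterol and fatty acid genes 15 rose and 21 fell. Fatty acid synthase, Fasn, went from 2869 ± 126 to 17811 ± 1489 (2.63 ± 0.07) and Elovl6, which lengthens its product, from 243 ± 10.1 to 1541 ± 337. The sterol gene Sqle rose (1.45), and Mvk, Mvd and Dhcr7 fell (−2.42, −2.20 and −2.52). The sterol exporters Abca1 and Abcg1 fell too (−1.28 and −2.54).

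Among cell cycle genes, those of entry into G1 changed most plainly. Ccnd2, the cyclin D of early G1, had 6763, 6452 and 6897 in the N0 libraries and 52097, 56388 and 58543 in the NAg libraries (3.05 ± 0.08), Cdk6 went from 301 ± 30.4 to 3037 ± 507 and Cdk4 from 642 ± 23.2 to 1835 ± 132, and Ccnd3 fell (−2.05 ± 0.08). Cdkn1b (p27), the inhibitor that holds resting T cells in G0, had 3183, 3118 and 3217 in the N0 libraries and 198, 179.7 and 252 in the NAg libraries (−3.91 ± 0.11). Rbl2 (p130), of the repressor complex of quiescent cells, had 2203, 2238 and 2286 in N0 and 327, 209 and 207 in NAg (−3.18 ± 0.15), and Ccng2, a cyclin of arrested cells, 959, 869 and 912 in N0 and 53.9, 48.2 and 79.2 in NAg (−3.91 ± 0.13). Cdkn1a (p21) rose from 10.9, 1.04 and 10.9 to 561, 569.8 and 537 (6.15 ± 0.28). Of 25 G1 cyclins, their kinases and inhibitors 11 rose and 11 fell. Of 36 S-phase and mitotic genes 9 rose, 6 fell and 21 did not pass, and Pcna, of the replication clamp, was the one called higher (1.22 ± 0.11). On library totals 1 rose, with only the N0 and NAg libraries 5 rose, and with marker scores as covariates 10 fell. Mki67, a marker of dividing cells, did not pass, with means of 336 in N0 and 473 in NAg, but it passed as higher by 0.92 without N0 replicate 1.

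**Figure D4:**
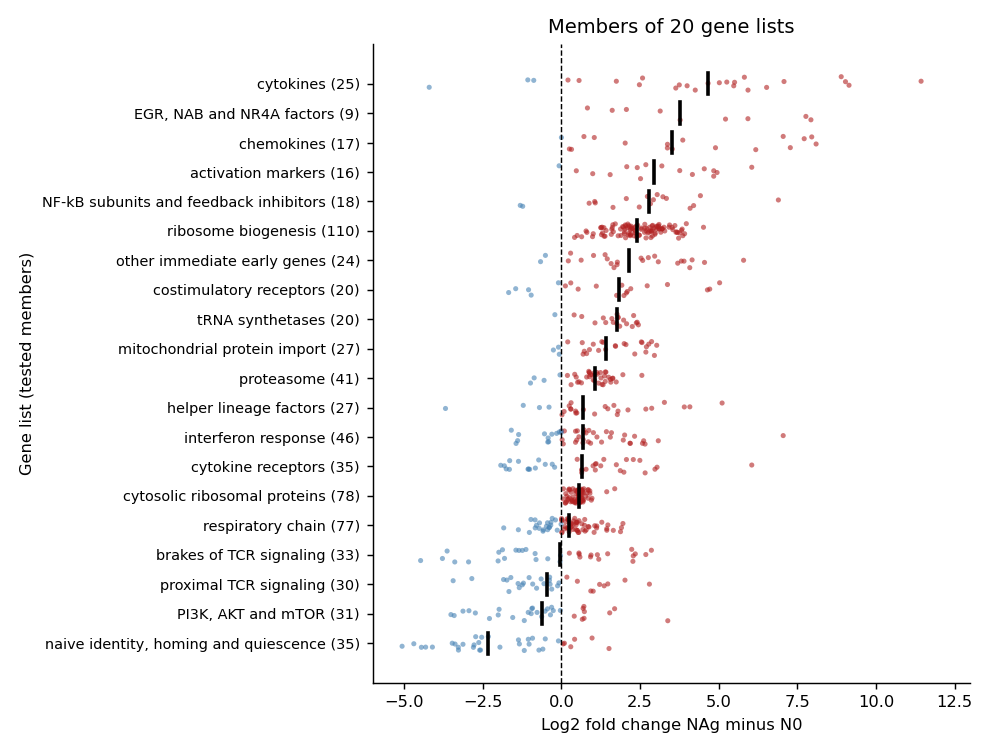
Log2 fold change NAg minus N0 (x axis) of the tested members of 20 gene lists (y axis, number of tested members beside the name). Each point is 1 gene, the bar is the list's median and the dashed line is the median of all tested genes at 0.00. All 110 ribosome biogenesis genes lie above 0, and the naive identity list has the lowest median, −2.32.

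The repressed program was led by genes of the resting naive cell. Of 35 genes of naive identity, homing and quiescence 28 fell and 4 rose, with a median of −2.32. S1pr1, the receptor that takes T cells out of lymphoid organs, had 6309.9, 6339.9 and 6261 in the N0 libraries and 315, 408 and 378 in the NAg libraries (−4.10 ± 0.13, edgeR adjusted p = 2.09e-16). Klf2, the factor that transcribes S1pr1, had 3687, 2953 and 3378 in the N0 libraries and 400.3, 248 and 808 in the NAg libraries (−2.78 ± 0.32). Both fell together with Ccr7, which guides cells into the T cell zone (3728, 4084 and 3741 in N0 and 646, 692 and 606 in NAg, −2.57 ± 0.11). Klf3, a repressor of the same family, fell further, with 1934, 2196 and 2077 in N0 and 115, 58.7 and 67.1 in NAg (−4.69 ± 0.18). Cxcr4 fell from 947 ± 561 to 77.1 ± 27.4 and the integrin genes Itgb7 and Itga4 from 6573 ± 551 to 763 ± 149 and from 9823 ± 468 to 2108 ± 554, while Cxcr5, which leads to B cell follicles, and Ccr8 rose (2.24 ± 0.40 and 3.13 ± 0.27). Of 20 chemokine receptors 5 rose and 4 fell.

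Transcription factors of the resting cell fell as well. Tcf7 (TCF1) had 11938, 14925 and 13672 in the N0 libraries and 2299.9, 2298 and 2399 in the NAg libraries (−2.53 ± 0.09), its relative Lef1 8433, 8177 and 7498 in the N0 libraries and 1381, 1673 and 1762 in the NAg libraries (−2.32 ± 0.08), and Ets1 23773, 24963 and 23836 in the N0 libraries and 2797, 2229.7 and 2483 in the NAg libraries (−3.27 ± 0.10). Each was lower in all NAg libraries. Foxo1, the factor behind Klf2 and Il7r, fell from 5941 ± 984 to 3142 ± 134 (−0.92 ± 0.09), and its relative Foxo4 from 474 ± 33.1 to 44.2 ± 24.7 (−3.41 ± 0.24). Not every such gene fell. Satb1, a chromatin organizer of T cells, rose from 18138 ± 1905 to 51742 ± 6558 (1.51 ± 0.10), and Foxp1, a factor of quiescence, rose by 0.42 (0.02 on library totals).

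Several genes that restrain growth signals fell. Txnip, which restrains glucose uptake, had 7327, 12354 and 10264 in the N0 libraries and 1027, 699 and 1148 in the NAg libraries (−3.38 ± 0.32), Pik3ip1, an inhibitor of PI3K, 996, 1670.3 and 1347 in N0 and 179, 97.5 and 181 in NAg (−3.13 ± 0.26), and Tsc22d3 (GILZ), a glucocorticoid target, 2128, 4377 and 2371 in N0 and 316, 199 and 754 in NAg (−2.80 ± 0.47). Sesn1 and Ddit4, inhibitors of mTORC1, fell (−2.94 ± 0.15 and −2.74 ± 0.44). Of 31 genes of the PI3K, AKT and mTOR path 20 fell and 9 rose, with Rragd, a RAG GTPase of amino acid sensing, the steepest rise (3.38 ± 0.19). Of 24 genes of cyclic AMP signaling and breakdown 13 fell and 6 rose. Adcy7, an adenylate cyclase, fell from 7737 ± 715 to 544 ± 91.3 (−3.83 ± 0.11) and the phosphodiesterase Pde3b from 4408 ± 1083 to 714 ± 72.8 (−2.63 ± 0.14).

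Smaller groups held members that rose beside members that fell. Tgfbr2 and Tgfbr3, receptors for TGF-beta, fell (−1.85 ± 0.07 and −3.39 ± 0.14) while Tgif1, a corepressor of the pathway, rose (3.96 ± 0.10), and of 21 genes of the pathway 10 rose and 8 fell. Of 14 genes of DNA methylation and its removal 6 rose and 6 fell. Tet1 and Dnmt1 fell (−4.95 ± 0.19 and −1.61 ± 0.07) and Tet2 and Dnmt3a rose, from 1621 ± 114 to 6953 ± 214 and from 2357 ± 70.7 to 9380.5 ± 623. Of the clock genes Per1 and Per2 rose (1.59 ± 0.17 and 2.73 ± 0.12) and Dbp fell (−2.30 ± 0.18), with 10 of 15 higher and 2 lower (4 lower on library totals). Granzyme B, Gzmb, went from 70.2 ± 24.3 to 1119.7 ± 143 (3.99 ± 0.32), and 9 of 13 cytotoxic genes rose and 1 fell. NK cell marker sums are given above, and their part was not tested.

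Other genes were also among the 20 largest rises. Lipg, endothelial lipase, had a single read over N0 and 1352, 2022 and 2334 in NAg (5701-fold, exact 95% counting interval 1023 to 225216). Sema7a, a membrane-bound semaphorin, had 57.5, 19.8 and 28.8 in the N0 libraries and 20761, 22791 and 25380.1 in the NAg libraries (9.33 ± 0.27), and Mfsd2a, a transporter of lysolipids, 4.95, 14.6 and 9.92 in the N0 libraries and 4106, 4266 and 3859 in the NAg libraries (8.69 ± 0.15). F3, tissue factor, had no N0 read and 14.4, 119.8 and 97.9 in NAg (at least 77.6-fold). The values of every NAg library lay above every N0 library in these genes. Naive cells treated in culture with phorbol ester and calcium ionophore had means of 81.6 for Lipg, 2047 for Sema7a and 1105 for Mfsd2a. For F3 the mean in those cells was 21.2. The other genes among the 20 largest rises not described above were Gm4969, Gm12534, Gm17322, Syde2, Bcat1 and Samd4. Gm12534 shares 35 of its 469 exon bases with Il21 on the opposite strand, so that some of its reads may be those of Il21. Bcat1, a branched-chain aminotransferase, had 18.8, 3.13 and 12.9 in N0 and 2477, 3013 and 2089.6 in NAg (7.73 ± 0.27). Of 7 tested stromal and endothelial markers 3 rose and 2 fell. The rises were Col1a1 and Kdr (3.57 and 2.46) and Cdh5, which did not pass with DESeq2 (adjusted p = 0.104) or on library totals, nor without any one of N0 replicates 1 and 3 and NAg replicates 1, 2 and 3. The falls were Pecam1, also made by resting T cells (−1.63 ± 0.08), and Pdgfrb (−1.41), which did not pass with DESeq2 (adjusted p = 0.0682) or without either N0 replicate 2 or 3 or NAg replicate 2 or 3. The part of such cells in the rises was not tested.

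Among the 20 largest falls, Gprc5b, an orphan receptor, had 117, 106 and 94.2 in N0 and no read in NAg, at least 91.6-fold lower. Tbx6, a T-box factor, had 219, 241 and 199 in N0 and 2 reads over NAg, 285-fold lower with an exact 95% counting interval of 78.5 to 2356. Kcnh3, a potassium channel gene, had 48.5, 73.1 and 50.6 in N0 and a single read over NAg. These genes had almost no reads left at 2 h. Map2k6, a kinase that activates p38, had 245, 357 and 272 in the N0 libraries and 7.19, 3.52 and 5.50 in the NAg libraries (−5.72 ± 0.24), Tbxa2r, the thromboxane receptor, 411, 530.3 and 386 in N0 and 5.99, 9.40 and 7.70 in NAg (−5.82 ± 0.23), and Rgs14, which limits G protein signals, 1605, 1554 and 1535 in N0 and 45.5, 32.9 and 52.8 in NAg (−5.15 ± 0.19). Thra, a thyroid hormone receptor whose 3′ end overlaps Nr1d1 on the other strand, fell while Nr1d1 rose, and without strand their reads cannot be told apart. Also among these falls were G430095P16Rik, Slc16a5, Cnga1, A530021J07Rik, Brdt, 2410066E13Rik, Fam101b, Bambi-ps1, Rab3a, 2610019F03Rik, Cacnb1 and Pdlim4.

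By reads per kilobase of exon, which allows genes to be compared in amount, the 10 largest gains were in Nr4a1, Cd69, Ptma, Nfkb1, Nr4a3, Irf4, Myc, Ly6a, Nfkbid and Pim1. On this scale Nr4a1 went from 422 to 25695, Cd69 from 445 to 13723, Ptma, encoding prothymosin alpha, from 3923 to 16612 and Pim1, a survival kinase, from 699.6 to 9815. The largest losses were in Tmsb4x (thymosin beta 4), from 12819 to 4713, in Dgka, from 6375 to 463, and in the segments Trbd1 and Trbj1-1 to Trbj1-7 of the TCR beta locus. These segments are short and adjoining, so they count as one event, and Trbj1-1 had 490.3, 584 and 569 in the N0 libraries and 255, 256 and 188 in the NAg libraries (−1.23 ± 0.13). The constant gene Trbc1 also fell (−1.04 ± 0.08).

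The NAg program was then set beside the response of tolerized cells to the same injection, using the contrast TAg minus T0 less NAg minus N0. The difference passed at an adjusted p under 0.05 in 1223 genes (7.09%) with a negative value and 2511 (14.6%) with a positive value. Of the 2444 genes called higher in naive cells, 2403 had the same sign of change in tolerized cells, 724 (29.6%) changed by less in that direction and 42 (1.72%) by more at an adjusted p under 0.05, and the median log2 fold change was 1.77 in naive and 1.48 in tolerized cells. Of the 2785 genes called lower, 2765 had the same sign, 1569 (56.3%) changed by less in that direction and 16 by more, with medians of −1.80 and −1.22. Since the genes were chosen on the N0 and NAg libraries, a smaller change in other libraries is to be reckoned with, and these numbers are a description. The share that changed by less was 56.3% of the genes called lower and 29.6% of the genes called higher. Il2 went from 4.54 ± 2.66 to 717 ± 175 (SD, n = 3 each) between T0 and TAg, a log2 change of 7.27 against 9.03 in naive cells, and the difference of −1.76 ± 1.19 did not pass (edgeR adjusted p = 0.357), while with DESeq2 a difference of −1.79 did (adjusted p = 0.0161). For S1pr1 the log2 change was −2.89 against −4.10 (1.21 ± 0.17, edgeR adjusted p = 2.79e-05), and for Myc 4.65 against 5.34 (−0.69 ± 0.14, adjusted p = 7.79e-04). Of the 110 tested ribosome biogenesis genes 21 had a negative and 0 a positive difference. That is a smaller share than the 29.6% of all genes called higher that changed by less.

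**Figure D5:**
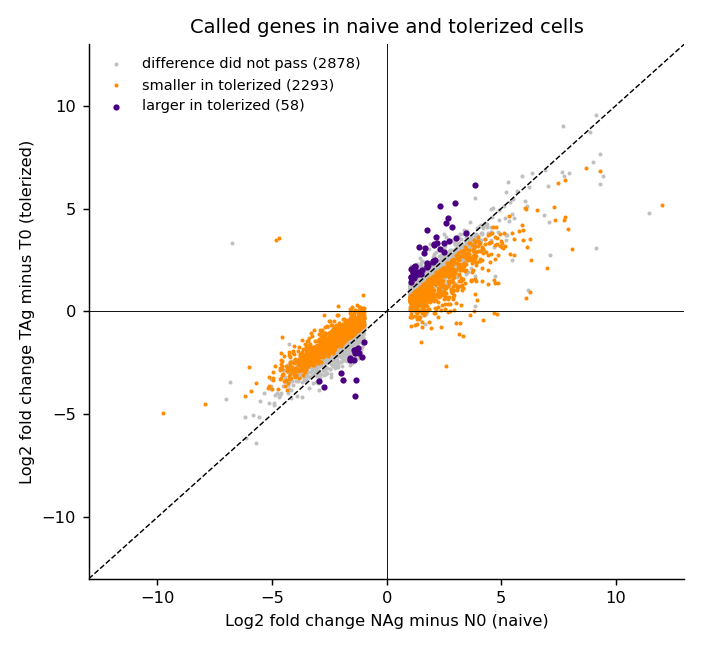
Log2 fold change TAg minus T0 in tolerized cells (y axis) against NAg minus N0 in naive cells (x axis) for the 5229 called genes, one point per gene, with the line of equal change dashed. Genes whose difference passed at an adjusted p under 0.05 are colored, 2293 with a smaller and 58 with a larger change in tolerized cells.

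Ccl22 and Gcnt4, a glycosyltransferase, had among the largest negative differences. Gcnt4 had 2 reads over N0 and 55.1, 67.0 and 62.7 in NAg, and in tolerized cells went from 10.9 ± 9.70 to 21.2 ± 16.3. Ccl22 went from 1.47 ± 1.35 to 13.2 ± 0.102 in tolerized cells. Ramp3, a receptor-modifying protein, rose from 58.5 ± 6.12 to 358 ± 104 in naive cells and went from 55.7 ± 9.23 to 8.74 ± 2.36 in tolerized cells, a difference of −5.25 ± 0.41 (edgeR adjusted p = 1.37e-07). On the other side Dusp6, an ERK phosphatase, fell slightly in naive cells (−0.62 ± 0.21, not past the threshold without NAg replicate 2) and went from 404 ± 32.7 to 1638 ± 134 in tolerized cells, a difference of 2.64 ± 0.27 (edgeR adjusted p = 6.12e-06), and Rgs16, which limits G protein signals, rose in both, from 26.9 ± 19.1 to 138 ± 39.0 and from 71.4 ± 17.5 to 2468 ± 305, a difference of 2.78 ± 0.53 (adjusted p = 0.00211).

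Motifs were counted over all promoter windows as a description, without a test, and a gene with several windows was counted once if any of them matched. Both strands were searched. The AP-1 motif TGANTCA (N is any base) was found in 19% of the 100 windows of genes called higher at least 16-fold, 6.29% of the 1652 windows of all genes called higher, 5.23% of the 1930 of genes called lower and 6.54% of the 10163 of all tested genes. The NF-kB site was found in 13%, 7.51%, 6.27% and 6.42% of these, and in 12.7% of the 63 windows of genes that fell at least 16-fold. The steepest rises held the AP-1 and TATA motifs at higher shares than all genes called higher, and the E-box, the ETS core CCGGAAGT and the CRE core were instead at higher shares among all genes called higher (17.2%, 10.2% and 40.6%) than among all tested (11.5%, 8.27% and 33.7%). The ETS core was found in 3.0% of the steepest rises. Gene lists with other changes reached similar or higher shares. Among the lists searched, TATA ranged from 6.52% of 92 ribosome biogenesis windows to 27.6% of 29 windows of naive identity, homing and quiescence. AP-1 ranged from 2.17% of the ribosome biogenesis windows to 31.2% of 32 interferon response windows. The KLF motif GGGTGTGG was found in 14.3% of the 63 windows of genes that fell at least 16-fold and 4.66% of all. The full CRE TGACGTCA (2.0% and 3.50%), the EGR motif GCGNGGGCG (14.0% and 11.5%), the NFAT core GGAAAA (30.0% and 24.0%), the interferon response element (6.0% and 3.94%), the FOXO motif GTAAACA (3.0% and 3.10%) and the CArG box bound by SRF (1.0% and 1.64%) differed by less between the steepest rises and all tested windows.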

How the data were processed

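Tg4-H2u mice received PBS or peptide 2 h before CD4+ T cells were enriched from the spleen, and rRNA-depleted total RNA was sequenced in pairs of reads. The authors aligned the reads to mm9 with TopHat 2.1.1 and deposited raw gene counts made with HTSeq-count 0.9.1 on Ensembl genes, so the unit is counts. The submitters' processing notes also name DESeq2 1.18 and edgeR 3.24 for the study's own calls, which required both tools, a fold change of 2 and a count above 50. The use of strand and the treatment of reads in overlapping genes are not given in the sources used here. Of 37991 genes in the files 37205 were matched to an mm9 annotation, and 24647 had a read.

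From these counts, a quasi-likelihood model with TMM scaling was fitted in edgeR 4.0.16 (R 4.3.3) to the 18 libraries with a mean for each of 6 groups, after removal of genes whose average normalized count was under 3 in every group. P-values were adjusted by Benjamini-Hochberg over the 17240 genes left. Groups were taken from the treatment labels. Pairs of replicates of one group differed by more than sampling noise (chi-square per degree of freedom 5.29 to 10.9). Each library was counted as a replicate, though this spread cannot tell whether the libraries come from separate mice. Counting intervals and floors (3 reads over a group) cover counting error only. The rate of false calls in these libraries, where 65.5% of the tested genes passed, was not tested. DESeq2 1.42.0, other scalings and filters, subsets of libraries, a replicate block and scores of other cell types as covariates were tried as alternatives. Promoter windows are RefSeq sequences of GRCm38.p6 matched by gene symbol.

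The comparison, gene lists, motifs and genes shown were chosen with earlier results of these data known. Genes were named as the 20 largest rises and 20 largest falls among called genes whose groups do not overlap, the 10 called genes with the largest gain and the 10 with the largest loss per kilobase of exon, the 5 most negative and 5 most positive differences of response among genes with an adjusted p under 0.05 and an average normalized count above 50 in NAg or TAg, and members of the gene lists, which were picked for their role or size of change after their values were seen and are read beside the counts of the whole list. A few genes that the rule would name are not reported here.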

Additional observations from a re-analysis of the deposited data

Results flagged for a closer look

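The response to Ag differed between tolerized and naive cells in 3734 genes, by the test of the difference itself (contrast TAg minus T0 less NAg minus N0, edgeR adjusted p under 0.05 over 17240 genes). The 5 genes with the most negative and the 5 with the most positive difference, among those chosen by the naming rule, are given here. With 3 libraries per group, no test for a single library far from its group was made.

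The difference was −6.87 ± 2.41 for Lipg (edgeR adjusted p = 0.0475), which went from 1.25 ± 1.47 to 46.9 ± 14.4 in tolerized cells. Without any 1 of 8 libraries (N0 replicates 1 to 3, NAg replicate 2, T0 replicates 2 and 3 and TAg replicates 1 and 2) the difference for Lipg did not pass, with values from −8.77 to −5.61. It was −5.42 ± 0.86 for 1700016P03Rik (edgeR adjusted p = 4.58e-05), a noncoding RNA that overlaps Ovca2 on the opposite strand. Gcnt4 had −5.33 ± 1.40, Ramp3 −5.25 ± 0.41 and Ccl22 −5.06 ± 1.23, and that of Ccl22 did not pass without T0 replicate 2 (−4.40, edgeR adjusted p = 0.0727). In Ramp3 the 2 responses ran in opposite directions, a rise of 2.61 in naive cells and a change of −2.65 in tolerized cells.

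On the positive side Npas4, an activity-dependent factor, differed by 2.96 ± 0.64 (edgeR adjusted p = 0.00223), going from 8.69 ± 2.89 to 23.4 ± 9.68 in naive and from 12.7 ± 4.45 to 264 ± 125 in tolerized cells. Rgs16 differed by 2.78 ± 0.53 and Dusp6 by 2.64 ± 0.27. Hspa1a and Hspa1b differed by 8.27 ± 2.47 and 8.27 ± 2.30, and both rest on N0 replicate 1, without which the differences were 1.98 and 3.35 and neither passed. That of Hspa1a also did not pass without any 1 of the NAg or T0 libraries or TAg replicates 1 or 2, nor that of Hspa1b without TAg replicate 2.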

How the results depend on the processing

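The counts of genes called or passing in the NAg and N0 comparison, and of responses that differed from tolerized cells, stayed within 1.5 times their value in all 74 recomputed counts. These covered DESeq2, DESeq2 together with edgeR, other scalings, no filter on low counts, no minimum count in the call, subsets of libraries, the replicate block, marker scores as covariates (the erythroid score without Tfrc, an activation marker) and leaving out each library. Across the 6 leave-outs of one N0 or NAg library, genes called higher ranged from 2302 to 2470 and genes called lower from 2776 to 2950, and between 5030 and 5098 of the 5229 called genes were called again. Differing responses ranged from 3128 to 4061 over the 12 libraries left out in turn. DESeq2 called 2568 higher and 2651 lower. Scaling by library totals lowered all values by a median of 0.41. The numbers of the replicates did not pair the libraries, since same-numbered N0 and NAg deviations correlated at 0.04, 0.27 and −0.21. Fitted with the replicate block all the same, 2441 genes were called higher and 2783 lower, and 3607 responses differed.

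Of 311 genes named in the text with a test, 289 kept their direction and side of the threshold under all of these settings. Direction turned for Fos, Phgdh, Hspa1a and Hspa1b. Fos was at −0.0244 on library totals and ranged from −0.0585 without NAg replicate 3 to 0.658 without N0 replicate 1, and Phgdh was at −0.0589 on library totals. Hspa1a ranged from −5.32 without N0 replicate 3 to 1.58 without N0 replicate 1, and Hspa1b from −5.44 to 0.0711 without these same libraries. Median log2 fold changes were recomputed only for the lists whose median is given in the text, and not for the other lists. They kept their sign in all of these recomputations, and that of the interferon response genes was 0.15 with the marker scores as covariates. Promoter motif shares moved outside the exact binomial interval of their value in 11 of 56 recomputations, all of which searched only the bases before the start. For genes with few reads in N0 the depth of 10758571 to 11204651 reads limits the fold change to a lower bound or a wide interval.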

Other observations

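Counts for further gene groups are to be read beside the 32.1% of all tested genes that rose and the 33.4% that fell. Of 13 genes of follicular helper T cells, which help B cells, 10 rose and 2 fell. Pou2af1, a coactivator best known from B cells, had 244, 134 and 142 in the N0 libraries and 2000.3, 2030.0 and 2269 in the NAg libraries (3.60 ± 0.25). B cell marker sums are given with the libraries, and their part was not tested. Tox2, a nuclear factor of follicular helper cells, had 69.3, 19.8 and 36.7 in N0 and 627, 898 and 626 in NAg (4.08 ± 0.30). The groups did not overlap in these genes. Their defining factor Bcl6 rose by 0.70 (0.29 on library totals, not passing), and the 2 that fell were Sh2d1a (SAP) and its receptor Slamf6 (−1.38 and −1.45). Of 13 genes typical of regulatory T cells 7 rose, Lrrc32 (GARP) among them (2.66 ± 0.37) and 1, Capg, fell (−0.57), which did not pass without N0 replicate 1 or 3 or NAg replicate 2 or 3.

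Adhesion molecules divided, 10 of 24 higher and 11 lower. Icam1 had 393, 269 and 336 in the N0 libraries and 6381, 5736 and 5795 in the NAg libraries (4.16 ± 0.19), while Itgb3, Itga6 and Selplg, the ligand of P-selectin, fell (−3.14, −2.73 and −1.60). Among 37 G-protein receptors and RGS genes 13 rose and 17 fell. The prostaglandin E2 receptor genes Ptger2 and Ptger4 rose (2.38 ± 0.41 and 1.85 ± 0.09), as did Gpr65, an acid sensor, with 310.0, 327 and 304 in N0 and 3129, 3092 and 2841 in NAg (3.27 ± 0.11). S1pr4, another sphingosine 1-phosphate receptor, also fell, with 1441, 1331 and 1356 in N0 and 69.5, 64.6 and 72.6 in NAg (−4.32 ± 0.19). Calcrl and its partner Ramp1, which form the receptor for the neuropeptide CGRP, both fell (−2.70 ± 0.10 and −2.84 ± 0.22), while Ramp3, which pairs with Calcrl as a receptor for adrenomedullin, rose (2.61 ± 0.20).

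Of 17 genes of the hypoxia pathway 6 rose and 7 fell, with Hif1a higher and Epas1, encoding HIF-2 alpha, lower (−2.86 ± 0.22). The mitophagy receptor gene Bnip3l fell too (−2.49 ± 0.10). Of 23 genes of the endoplasmic reticulum chaperones and stress sensors 16 rose and 7 fell, with Atf6 at 2.53 ± 0.11 and Dnajc3 at −2.11 ± 0.10. Of 26 regulators of mRNA decay 12 rose and 8 fell. Zfp36l1, which binds AU-rich mRNAs, went from 3666 ± 82.4 to 16144 ± 575, and Xrn1, the exonuclease that degrades decapped mRNA, fell (−1.48 ± 0.08). Of 9 Schlafen genes, which act on quiescence and growth of T cells, 2 rose and 5 fell, with Slfn2 higher and Slfn1 lower (1.24 ± 0.14 and −1.12 ± 0.19). Without N0 replicate 2 or 3 or NAg replicate 1 or 3 only 1 of them rose, and without N0 replicate 3 or NAg replicate 2 or 3 only 2 or 3 fell.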
